A study of Mus musculus with 12 samples.

Results

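The NADPH oxidase subunit genes Cybb, Cyba, Ncf1, Ncf4, Rac2 and Nox4 were described in whole lung of C57BL6/J mice, as the rows of the deposited expression table that carry these 6 names, out of 23127 genes in all. All 6 had 1 row each, and all 6 passed the filter on low values used for the tests (a mean of 1 CPM or more over the 12 libraries, CPM being the read count of a gene scaled to a common library total). The groups were 4 control mice at 0 weeks and 2 groups of 4 mice given L-NAME, an inhibitor of nitric oxide synthase, at 0.5 g/L in the water together with a high fat diet of 60% lipid, for 2 or 5 weeks. Each library of flash-frozen lung carries a number of its own, read here as 1 mouse. The labels do not say so outright, so p-values measure the spread between these libraries, and the replicate numbers 1 to 4 only name them. No untreated mice were kept to 2 or 5 weeks and no group had L-NAME or the diet alone, so time, drug and diet cannot be told apart. The labels give no age, and the series also describes a single-cell experiment that was not analysed here.

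NADPH oxidases move electrons from NADPH across a membrane to oxygen and so make superoxide or hydrogen peroxide. The phagocyte enzyme, known for killing microbes in neutrophils and macrophages, has a membrane core of the catalytic chain NOX2 (gene Cybb) and its partner p22phox (Cyba). It is silent until cytosolic proteins, among them p47phox (Ncf1) and p40phox (Ncf4), and the small GTPase RAC2 (Rac2) join the core. NOX4 (Nox4) is a related catalytic chain of vascular, mesenchymal and epithelial cells that also pairs with p22phox, needs none of the cytosolic subunits and releases mainly hydrogen peroxide.

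The libraries held between 26000000 and 34100000 reads on genes, estimated from the spacing of the lowest CPM values, so the member with the fewest reads in any library still had about 145. The alveolar type 2 marker Sftpc stood between 9794 and 18050 CPM, the alveolar type 1 marker Ager between 1459 and 2183 CPM, and the endothelial marker Pecam1 between 729 and 919.8 CPM, in every library. The 4 libraries lowest in Cybb were control replicate 3 and 2-week replicates 1, 2 and 3, a choice made by a member's own values. Many transcripts of leukocytes were low in them too. Ptprc, which encodes the pan-leukocyte protein CD45, stood between 57.5 and 76.7 CPM in these 4 and between 104 and 178 CPM in the other 8. The same 4 libraries were also the lowest 4 for Ncf1, Ncf4, Rac2 and Nox4. They were so too for the mean of the classical monocyte, alveolar macrophage, interstitial macrophage and T cell marker lists. For Cyba and for the means of the neutrophil, nonclassical monocyte, B cell and NK cell lists, 3 of these 4 libraries were among the lowest 4. The depth of the 4 libraries lay between 26500000 and 32100000 reads, inside the range of the others. In bulk tissue, fewer cells of a type and less RNA per cell cannot be told apart.

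**Figure D1:**
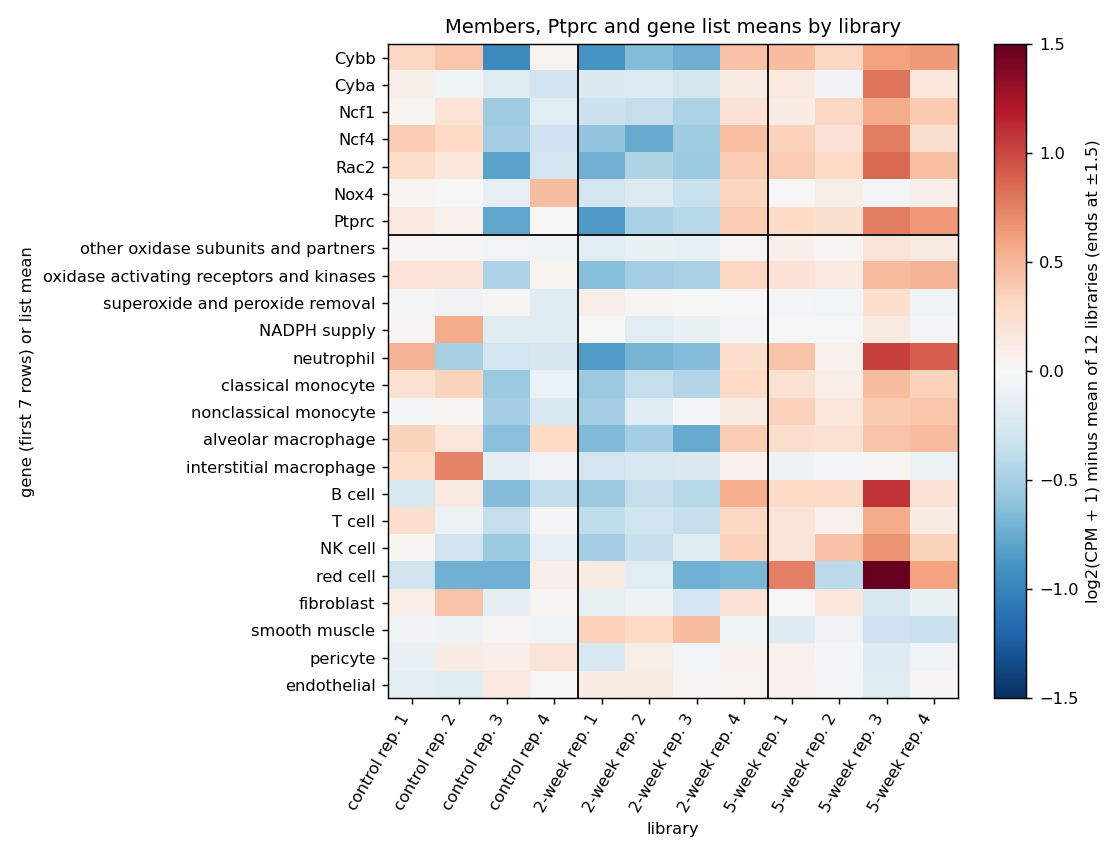
Each cell is the difference, on the log2(CPM + 1) scale, between a library and the mean of the 12 libraries, for the 6 members, Ptprc and the means of the pathway and marker lists; black lines part the groups and the genes from the lists, and the colour scale ends at 1.5 in either direction. Control replicate 3 and 2-week replicates 1 to 3 are blue across the leukocyte rows, and 2-week replicate 4 resembles the 5-week libraries there.

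Upstream sequence was taken from RefSeq for the 4 members with an entry in the table used, to set the promoters of genes that varied together beside that of Nox4, on GRCm38.p6. Each line gives the 250 bases before RefSeq's start site, on the gene's own strand; for Cybb and Nox4 that site lies inside the longer gene of GENCODE M21. Capitals mark matches, on either strand, to CCAAT (the box bound by NF-Y), GGGCGG (the GC box bound by Sp1-type factors) and TATAAA (the TATA box). GAGGAA, 1 form of the sites for PU.1, a factor of myeloid cells and B cells, was sought in the same way.
Cybb: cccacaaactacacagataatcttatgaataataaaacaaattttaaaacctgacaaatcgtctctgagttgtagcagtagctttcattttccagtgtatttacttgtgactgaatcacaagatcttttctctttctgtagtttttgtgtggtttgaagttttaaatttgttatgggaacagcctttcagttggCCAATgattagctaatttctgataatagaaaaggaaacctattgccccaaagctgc
Cyba: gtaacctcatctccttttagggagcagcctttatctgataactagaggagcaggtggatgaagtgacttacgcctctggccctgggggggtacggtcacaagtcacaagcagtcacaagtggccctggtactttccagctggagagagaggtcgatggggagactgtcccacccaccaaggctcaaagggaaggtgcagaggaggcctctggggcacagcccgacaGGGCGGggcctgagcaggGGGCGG
Ncf1: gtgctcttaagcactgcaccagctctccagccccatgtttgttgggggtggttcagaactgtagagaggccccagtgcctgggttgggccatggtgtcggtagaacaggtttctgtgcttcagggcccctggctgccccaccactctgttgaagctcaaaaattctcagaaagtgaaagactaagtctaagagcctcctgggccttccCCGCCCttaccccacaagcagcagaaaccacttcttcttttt
Nox4: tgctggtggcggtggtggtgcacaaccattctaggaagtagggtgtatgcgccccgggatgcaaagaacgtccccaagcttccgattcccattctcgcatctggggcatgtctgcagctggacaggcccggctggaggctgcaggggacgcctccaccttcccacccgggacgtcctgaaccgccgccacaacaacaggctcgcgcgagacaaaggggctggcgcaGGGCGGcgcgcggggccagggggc
These windows are chrX:9469325-9469574 (Cybb, minus strand), chr8:122432941-122433190 (Cyba, minus strand), chr5:134229626-134229875 (Ncf1, minus strand) and chr7:87246399-87246648 (Nox4, plus strand). The Cybb window is AT-rich, with 34.0% G and C where the median over 32851 promoter entries is 52.4%, and it holds a single CCAAT whose first base lies 56 bases before the start. The Nox4 window is GC-rich at 67.2%, with 1 GC box 24 bases before the start. Cyba (60.0% G and C) has 2 GC boxes, beginning 24 and 6 bases before the start, and Ncf1 (54.4%) has 1 on the opposite strand, 42 bases before it. CCAAT occurs in 33.8% of all windows of this length, GGGCGG in 32.7%, GAGGAA in 23.3% and TATAAA in 12.4%. GAGGAA and TATAAA had no match in these 4 windows. Only these exact strings were sought, so a missing match does not show that a binding site is absent. Ncf4 and Rac2 have no entry.

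Because CPM grows with transcript length, levels were compared between genes only as CPM per kilobase, using the joined exon length of each gene in GENCODE M21. Cyba (1039 exon bases) was the most abundant member, at 75.1 ± 8.32 CPM per kilobase in the controls and 100.1 ± 28.4 at 5 weeks (SD, n = 4), and lay above each of the other 5 in 12 of 12 libraries. Rac2 (3103 bases) came next, at 15.5 ± 4.93 CPM per kilobase in the controls. It lay above Cybb in 12 of 12 libraries and above Nox4 in 10 of 12. Nox4 (8471 bases; 12.2 ± 2.34 CPM per kilobase in the controls), Cybb (5808 bases; 11.6 ± 4.18) and Ncf1 (3663 bases; 8.97 ± 1.94) overlapped: Cybb was above Nox4 in 7 of 12 libraries and above Ncf1 in 8 of 12. At 5 weeks Cybb stood above Nox4 in 4 of 4 libraries, at 16.1 ± 1.68 against 11.6 ± 0.542 CPM per kilobase. Ncf4 (2020 bases) was the lowest in 12 of 12 libraries, at 4.38 ± 1.47 CPM per kilobase in the controls. Joined exon length counts every annotated isoform in full, so it understates the level of genes with long rare isoforms.

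The catalytic chain gene Cybb (ENSMUSG00000015340, chromosome X, 9301491 to 9354010 as the deposited table places it) had 81.4, 87.7, 33.4 and 68.1 CPM in control replicates 1 to 4. After 2 weeks it had 35.0, 41.6, 39.0 and 89.3 CPM, and after 5 weeks 90.5, 81.4, 100.1 and 103 CPM, in replicate order. One control and 3 of the 2-week mice were low, and the 5-week mice lay close together, at or above the level of control replicate 1. The mean at 5 weeks, 93.7 ± 9.75 CPM, was 1.39 times the control mean of 67.6 ± 24.3 and 1.83 times the 2-week mean of 51.2 ± 25.5 (SD, n = 4), with overlapping groups in both comparisons. The log2 difference was 0.96 ± 0.30 (SE) between 5 and 2 weeks, 0.55 ± 0.30 between 5 and 0 weeks and -0.41 ± 0.30 between 2 and 0 weeks. In limma, adjusted over all 15562 genes tested, none of the 3 passed the threshold of 0.05 (adjusted p = 0.297, 0.641 and 0.667). Without control replicate 3 the difference between 5 and 0 weeks was 0.24 and that between 2 and 0 weeks -0.71.

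Cyba, whose product p22phox holds both NOX2 and NOX4 stable in the membrane (ENSMUSG00000006519, chromosome 8, 123151515 to 123159669), varied less in the controls and at 2 weeks than the others. It had 88.7, 80.5, 74.5 and 68.4 CPM in the controls, 72.4, 73.1, 69.6 and 91.0 CPM after 2 weeks and 93.7, 80.9, 147 and 94.2 CPM after 5 weeks. The groups overlapped, and 5-week replicate 3 was far above the rest. The means were 78.0 ± 8.65, 76.5 ± 9.78 and 104 ± 29.5 CPM (SD, n = 4). The log2 difference between 5 and 0 weeks was 0.38 ± 0.16 (SE, limma adjusted p = 0.554) and was 0.20 without 5-week replicate 3, while that between 5 and 2 weeks was 0.41 ± 0.16 (adjusted p = 0.364) and 0.23 without it. The deposited table places Cyba wholly within Galnt2l, a gene of the opposite strand at a mean of 38.6 CPM, and without a stated strand setting the reads of the pair cannot be told apart.

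Among the cytosolic subunits, Ncf1, which encodes the organiser p47phox (ENSMUSG00000015950, chromosome 5, 134248907 to 134258479), had 36.05, 40.4, 23.8 and 31.2 CPM in the controls. It had 27.7, 26.9, 24.8 and 40.9 CPM after 2 weeks and 37.9, 43.6, 51.9 and 46.1 CPM after 5 weeks. All 4 mice at 5 weeks exceeded 3 of the controls and 3 of the 2-week mice. The means were 32.9 ± 7.11, 30.1 ± 7.30 and 44.9 ± 5.81 CPM (SD, n = 4), so that 5 weeks stood at 1.37 times the controls and 1.49 times 2 weeks. The log2 difference was 0.58 ± 0.17 (SE) between 5 and 2 weeks and 0.46 ± 0.17 between 5 and 0 weeks, and neither passed (limma adjusted p = 0.288 and 0.543). Gtf2ird2, at a mean of 8.85 CPM, overlaps the last part of Ncf1 on the opposite strand.

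Ncf4, which encodes the p40phox adaptor that binds membrane phosphoinositides (ENSMUSG00000071715, chromosome 15, 78129001 to 78146780), was the scarcest member. It had 11.7, 11.01, 5.78 and 6.88 CPM in the controls, 5.45, 4.77, 5.76 and 12.3 CPM after 2 weeks and 11.4, 10.3, 15.6 and 10.5 CPM after 5 weeks. At 2 weeks 3 mice lay below every control and the other one above every control. The means were 8.85 ± 2.96, 7.07 ± 3.503 and 11.9 ± 2.46 CPM (SD, n = 4). The log2 difference between 5 and 2 weeks was 0.75 ± 0.26 (SE, limma adjusted p = 0.336), and that between 5 and 0 weeks was 0.43 ± 0.26 (adjusted p = 0.667), or 0.27 without control replicate 3.

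Rac2, which encodes the GTPase of blood cells that switches the assembled enzyme on and also drives cell movement (ENSMUSG00000033220, chromosome 15, 78443367 to 78456983), had 62.7, 58.1, 29.1 and 42.7 CPM in the controls. It had 30.9, 37.4, 34.9 and 67.5 CPM after 2 weeks and 67.4, 64.0, 95.0 and 71.1 CPM after 5 weeks. Rac2 was the only member whose 5-week libraries all lay above all controls, 1 of 6, where 3.65% of all genes tested did so. The smallest gap there was narrow, 64.0 against 62.7 CPM. The means were 48.2 ± 15.3, 42.7 ± 16.8 and 74.4 ± 14.0 CPM (SD, n = 4), and 5 weeks stood at 1.54 times the controls. The log2 difference was 0.66 ± 0.25 (SE) between 5 and 0 weeks and 0.84 ± 0.25 between 5 and 2 weeks (limma adjusted p = 0.549 and 0.290).

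Nox4, the catalytic chain outside the phagocyte enzyme (ENSMUSG00000030562, chromosome 7, 86895304 to 87047918), had 98.1, 96.1, 87.7 and 133 CPM in the controls, 78.2, 82.9, 76.0 and 119.9 CPM after 2 weeks and 95.8, 102, 93.5 and 103 CPM after 5 weeks. The 5-week mice lay within the range of the controls, and 3 of the 2-week mice lay below every control. The means were 104 ± 19.8, 89.3 ± 20.6 and 98.5 ± 4.59 CPM (SD, n = 4). The log2 difference was -0.06 ± 0.14 (SE) between 5 and 0 weeks, -0.22 ± 0.14 between 2 and 0 weeks and 0.16 ± 0.14 between 5 and 2 weeks (limma adjusted p = 0.916, 0.637 and 0.739). Without control replicate 4, which carried the highest Nox4 value of all libraries, the first of these had the opposite sign, 0.07, and the second was -0.10. Without 2-week replicate 4 the second was -0.37 and the third 0.31, and without 2-week replicate 3 the third was 0.10.

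**Figure D2:**
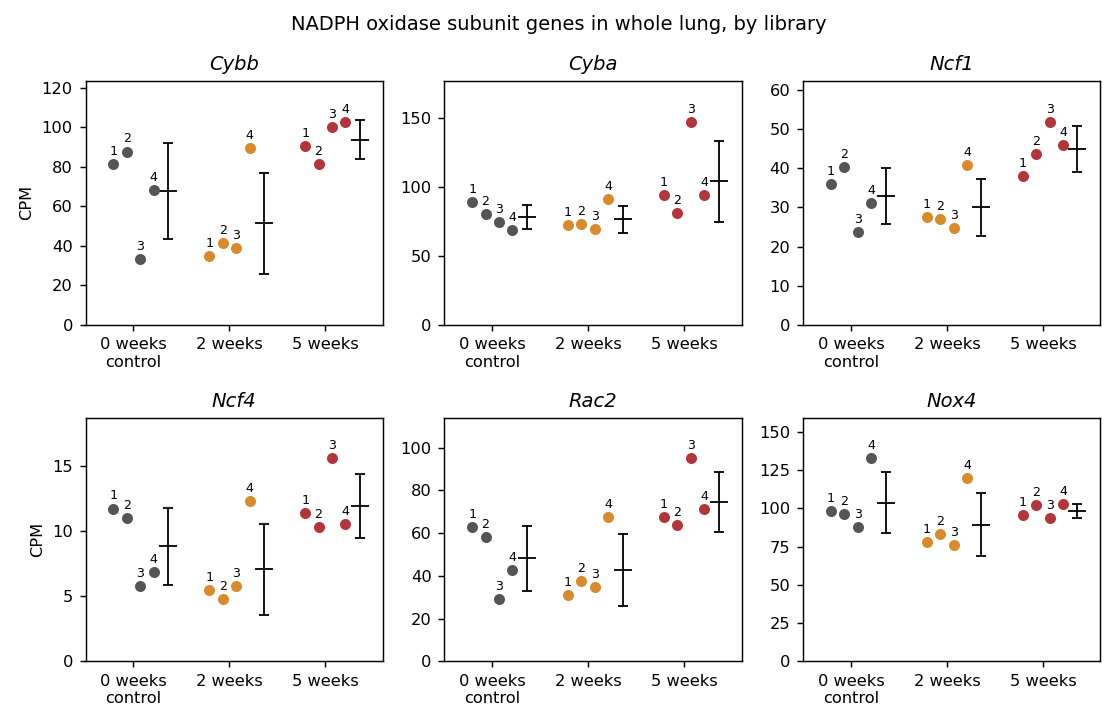
CPM of each member in each of the 12 mice, by group; numbers over the points are replicate numbers, and the bar beside each group is the mean with 1 SD on either side (n = 4). In the panels of Cybb, Ncf1, Ncf4 and Rac2, 2-week replicate 4 stands with the 5-week mice and control replicate 3 with the other 2-week mice, while Nox4 at 5 weeks stays between 93.5 and 103 CPM.

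The comparison of 2 with 0 weeks asks about the early response. All 6 members had log2 differences below 0, with a median of -0.20 where the median of all genes was 0.02 and 55.1% of all genes lay above 0. In limma 0 of 6 passed, where 0% of all 15562 genes passed. At an unadjusted p under 0.05 there were 0 of 6 in either direction, where 5.72% of all genes were higher and 3.52% lower (890 and 548 genes, or 674 and 747 after median-of-ratios scaling). This count of 0 was 3 lower without 2-week replicate 4 and 3 lower with library weights (Cybb, Ncf4 and Nox4 in both), and 1 without control replicate 3. In none of the 6 did every 2-week library lie above every control, where 3.37% of all genes did. The differences rested on few mice: without 2-week replicate 4 that of Cybb was -0.71 and that of Ncf4 -0.59, and without the 3 libraries known from an earlier analysis to stand apart (control replicate 2, 2-week replicate 3 and 5-week replicate 3) they were -0.17 and -0.15.

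The comparison of 5 with 0 weeks asks about the longer treatment. The 5 phagocyte members had log2 differences above 0, from 0.38 to 0.66, and Nox4 did not. The median over the 6 was 0.44, where the median of all genes was 0.02 and 55% of all genes lay above 0. None of the 6 passed in limma, where 0% of all genes passed. At an unadjusted p under 0.05, 3 of 6 were higher (Cyba, Ncf1 and Rac2), where 5.84% of all genes were, and none was lower, where 2.79% of all genes were. Over all genes these were 909 higher and 434 lower, or 652 and 628 after median-of-ratios scaling. The members' count of 3 was 0 without control replicate 3, 1 without control replicate 4 and 0 without 5-week replicate 3.

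Between 5 and 2 weeks, 6 of 6 members had log2 differences above 0, with a median of 0.67 where that of all genes was 0.001 and 50.2% of all genes lay above 0. In limma 0 of 6 passed, where 0% of all genes passed. The 5 phagocyte members had an unadjusted p under 0.05 (between 0.00490 and 0.0210), where 6.18% of all genes were higher and 4.72% lower at that level. In none of the 6 did every 5-week library lie above every 2-week library, where 2.38% of all genes did. The call turned on a single mouse. Without 2-week replicate 4, Cybb (log2 difference 1.26, adjusted p = 0.0248), Rac2 (1.08, adjusted p = 0.0267), Ncf1 (0.73, adjusted p = 0.0309) and Ncf4 (1.02, adjusted p = 0.0316) passed in limma, with 3 libraries left at 2 weeks. So did 386 of all genes. With library weights, which count libraries that scatter less more heavily, the same 4 members and 881 of all genes passed.

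**Figure D3:**
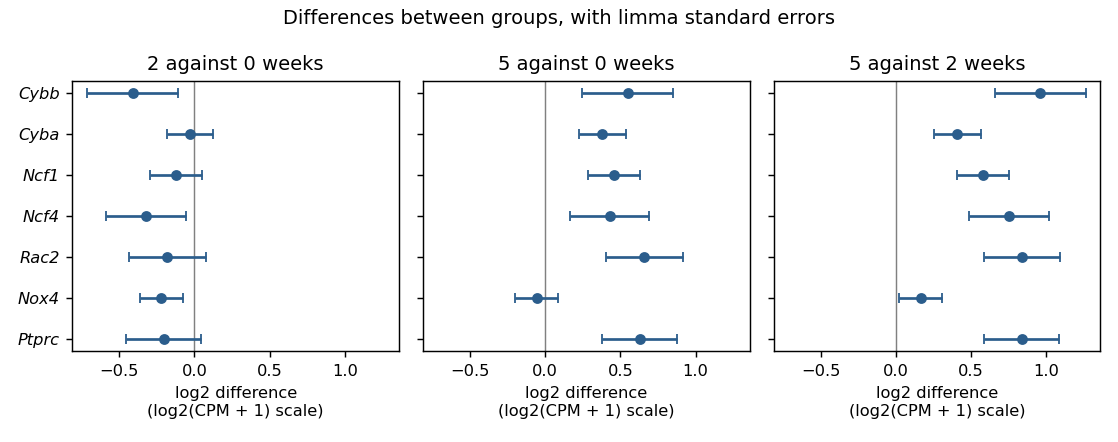
Log2 differences of the 6 members and of Ptprc in the 3 comparisons, on the log2(CPM + 1) scale; points are limma estimates over 12 libraries and bars are 1 SE on either side. The 5 phagocyte members and Ptprc lie right of 0 in the 5-week comparisons, and Nox4 lies close to 0 in the middle panel.

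**Figure D4:**
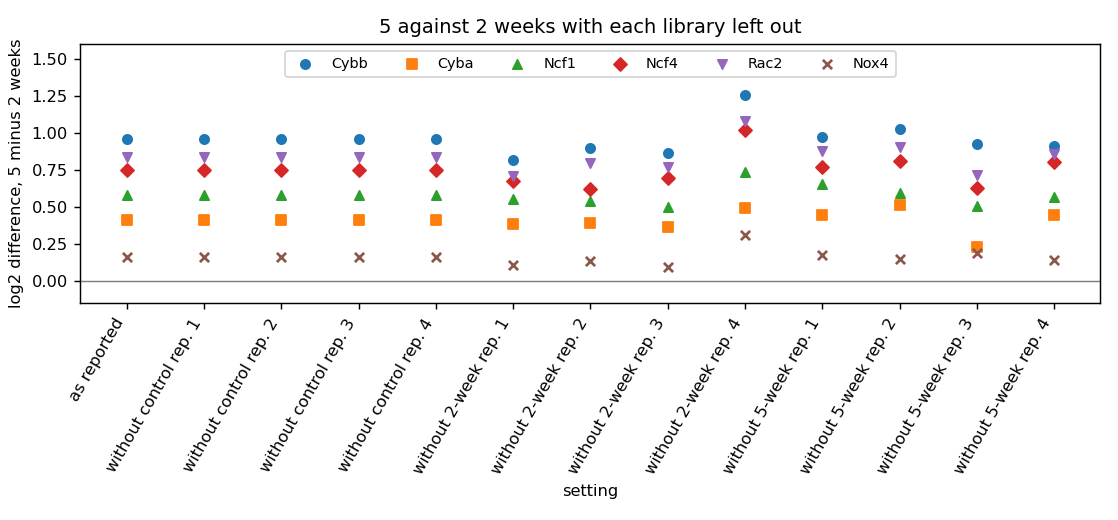
Log2 difference between 5 and 2 weeks for each member, as reported and with each of the 12 libraries left out in turn. Values of Cybb, Ncf1, Ncf4, Rac2 and Nox4 peak where 2-week replicate 4 is left out, that of Cyba where 5-week replicate 2 is, and all 6 members stay above 0 at every position.

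Limma's moderated F-test over the 3 groups gave an unadjusted p under 0.05 for 5 of 6 members, all but Nox4, and for 1681 of all 15562 genes. Adjusted over all genes it passed for none, with adjusted values from 0.364 for Ncf1 to 0.679 for Nox4. All 3 comparisons share libraries, so the members' differences in one are not independent of those in another.

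Markers of most leukocyte types were higher in the same comparison as the members, without passing, and their part in the members' differences was not tested. Between 5 and 2 weeks, 10 of 11 tested neutrophil markers, 4 of 7 of classical monocytes, 6 of 10 of nonclassical monocytes, 8 of 12 of alveolar macrophages and 7 of 10 of B cells were higher at an unadjusted p under 0.05, and none passed in limma. At that level 6.18% of all genes were higher. The summed level of the 12 neutrophil markers was 180 to 349 CPM in the controls, 129 to 261 at 2 weeks and 215 to 476 at 5 weeks. That of the 7 classical monocyte markers was 595 to 1189, 599 to 1124 and 986 to 1155 CPM, and that of the 12 alveolar macrophage markers 514 to 987, 476 to 988 and 841 to 1057 CPM. The lists did not all go 1 way. The 11 interstitial macrophage markers summed to 1349 to 1902 CPM in the controls, 1016 to 1166 at 2 weeks and 1105 to 1251 at 5 weeks, and 9 of 11 had log2 differences below 0 between 5 and 0 weeks. The 10 nonclassical monocyte markers summed to 1614 to 1878, 1664 to 1986 and 1384 to 1845 CPM. Most of this sum was Ace, which averaged 1520, 1457 and 1379 CPM at 0, 2 and 5 weeks. Gene by gene, 8 of these 10 markers had log2 differences above 0 between 5 and 0 weeks (median 0.69), where 55% of all genes did. The 10 B cell markers summed to 120 to 210.5, 130 to 286 and 228 to 458 CPM. Red cell transcripts, which mark blood in the tissue, summed to 1235 to 2604 CPM in the controls and 1509 to 16210 at 5 weeks, with 5-week replicate 3, the mouse with the highest Cyba and Rac2, at the top. Among the first markers of these lists, S100a8, a calcium-binding protein abundant in neutrophils, averaged 21.5 ± 14.4, 14.4 ± 11.98 and 52.9 ± 28.6 CPM at 0, 2 and 5 weeks (SD, n = 4). Ly6c2, a surface protein of classical monocytes, averaged 11.1 ± 3.71, 11.1 ± 3.22 and 20.1 ± 5.08 CPM, and Marco, a scavenger receptor of alveolar macrophages, averaged 10.2 ± 4.53, 7.92 ± 3.48 and 12.1 ± 2.05 CPM. Of the T cell markers 4 of 10, of the NK cell markers 6 of 10 and of the interstitial macrophage markers 1 of 11 were higher between 5 and 2 weeks at an unadjusted p under 0.05. None of these lists had a marker at 0 in all libraries.

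Set against Ptprc in the same library, none of the 5 phagocyte members gave a difference between groups that passed. Rac2 stood at -1.01 ± 0.18, -0.99 ± 0.10 and -0.98 ± 0.14 on the log2 scale relative to Ptprc at 0, 2 and 5 weeks (SD, n = 4), although Ptprc itself averaged 97.1 ± 25.2, 85.9 ± 34.2 and 148 ± 27.0 CPM. Cybb stood at -0.56 ± 0.22, -0.77 ± 0.15 and -0.64 ± 0.14. Between 5 and 2 weeks the difference relative to Ptprc was 0.003 for Rac2 and 0.12 for Cybb, where without Ptprc they were 0.84 and 0.96. For Cyba it was -0.43, for Ncf1 -0.26 and for Ncf4 -0.09. The exact two-sided permutation p of the 15 tests lay between 0.0857 (Cyba, 5 against 2 weeks) and 1.0, with adjusted values of 0.771 or more, and 0.0286 is the smallest that 4 against 4 mice allow. The Cyba ratio was above 0 in control replicate 3 (0.31) and 2-week replicate 1 (0.33), libraries low in leukocyte transcripts, and between -0.80 and -0.01 in the others. A p that misses the threshold does not show that the ratios were equal.

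**Figure D5:**
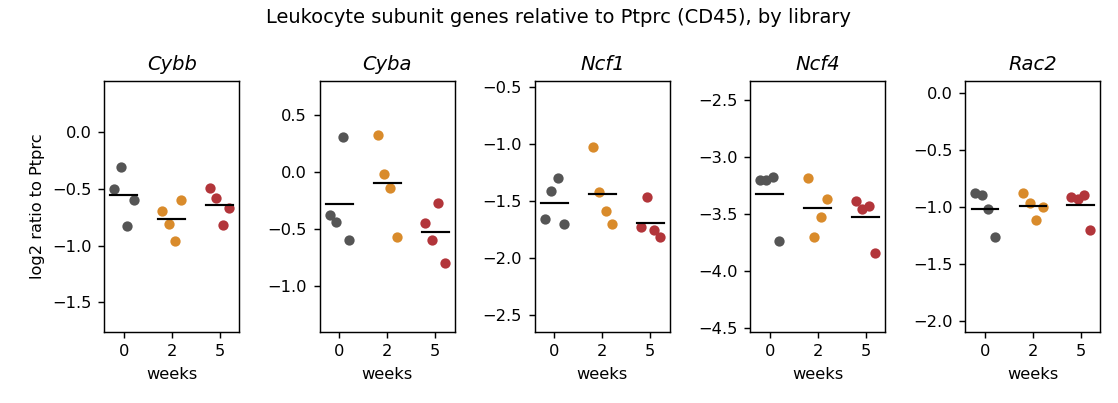
Log2 ratio of (CPM + 1) of each of the 5 phagocyte members to that of Ptprc, by library and week, with the group mean as a line; each panel spans 2.2 log2 units. The groups overlap in all 5 panels.

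The relation between members across mice is given as a description. Cybb left a gap between 41.6 and 68.1 CPM that parted 4 libraries from 8, so member pairs were not pooled over all 12 and r was taken within the 8 libraries above the gap. These 8 were chosen after seeing the data, by the values of Cybb, and they pool 3 controls, 1 2-week mouse and 4 5-week mice, so differences between groups enter r and p-values are left out. Cyba and Rac2 had the highest Pearson's r of the 15 pairs, 0.937 (Spearman's rho = 0.952), and 0.834 without the 2 libraries farthest from the median of Cyba. As deviations from the group means, over 12 libraries, their r was lower, 0.698. Cybb and Rac2 had r = 0.869 (rho = 0.881), 0.821 without the 2 farthest libraries and 0.942 as deviations from the group means. Such deviations take in the 4 libraries below the gap, which parts mice within the control and 2-week groups, so the gap enters both values. Ncf4 and Rac2 had r = 0.928 (rho = 0.595), which was 0.01 without the 2 farthest libraries and so rests on them. Ncf1 with Rac2 (r = 0.895) and Cybb with Ncf1 (r = 0.850) were 0.407 and 0.676 without the 2 farthest libraries. Nox4 had negative r with each of the other 5 in the 8 libraries, from -0.704 with Ncf4 to -0.571 with Cyba. Spearman's rho of Nox4 in the 8 was also negative with each, from -0.548 with Ncf4 to -0.31 with Ncf1. The sign of r depended on the libraries taken. Without the 2 libraries farthest from the median of the other gene of the pair, r was -0.205 with Cybb and 0.24 with Cyba. It was then 0.30 with Ncf1, 0.465 with Ncf4 and 0.425 with Rac2. Over all 12 libraries r of Nox4 was positive with each, from 0.129 with Cyba to 0.636 with Cybb.

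The genes whose pattern over the 12 libraries was most like each member were named by Pearson's r on log2(CPM + 1), as a description of mice that share the split above. In the 8 libraries above the gap the same genes had r between 0.700 and 0.939 for Cybb, 0.961 and 0.983 for Cyba, 0.886 and 0.986 for Ncf1, 0.869 and 0.959 for Ncf4, 0.927 and 0.984 for Rac2, and 0.801 and 0.899 for Nox4. Over the 12 libraries those of Cybb were Itgb2 (0.987), which encodes the common chain of leukocyte integrins, Laptm5 (0.985), Dock2 (0.981), Nckap1l (0.981) and Tifab (0.981). For Rac2 they were Hcls1 (0.992), which encodes a haematopoietic actin-binding protein, Ptpn6 (0.983), which encodes the phosphatase SHP-1, Adgre4 (0.981), Plek (0.981) and Arhgdib (0.977). Ncf1 was nearest to Hcls1 (0.978), Snx10 (0.972), Rasgrp1 (0.971), Cotl1 (0.971) and Ly9 (0.969), and Ncf4 to Fermt3 (0.975), Clec4a2 (0.971), Tyrobp (0.967), Abhd12 (0.966) and Hcls1 (0.964). Cyba was nearest to Arpc5 (0.972), Sgpp1 (0.964), Rpl10a-ps1 (0.963), Clec12a (0.963) and Cyrib (0.960). Nox4 was nearest to Dhx15 (0.937), which encodes an RNA helicase, Nbn (0.928), which encodes a DNA repair protein, Arhgap17 (0.925), Baz1a (0.923) and Ptbp3 (0.921). Hcls1 was shared by Ncf1, Ncf4 and Rac2, and the 5 genes nearest to Cybb, to Cyba and to Nox4 were not among those of any other member.

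Of 15 other oxidase subunits and partners listed, 13 were in the table and 9 passed the filter. None passed in limma in any comparison. Between 5 and 2 weeks 8 of the 9 had log2 differences above 0, where 50.2% of all genes did. At an unadjusted p under 0.05, 3 of the 9 were higher, where 6.18% of all genes were. Hvcn1, the proton channel that balances the charge moved by the oxidase, ranged from 19.5 to 42.4, 19.6 to 41.5 and 40.6 to 56.4 CPM at 0, 2 and 5 weeks, and did not pass (adjusted p = 0.288 between 5 and 2 weeks). Cybc1, whose product EROS is needed for NOX2 to reach the cell surface, averaged 39.1 ± 2.39, 37.8 ± 3.49 and 43.5 ± 4.42 CPM (SD, n = 4).

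Receptors, kinases and other regulators of the phagocyte oxidase mostly had log2 differences of the same sign as its subunits. The 19 listed include Vav1, Vav3, Dock2, Pla2g4a and Arhgdib, which are neither receptors nor kinases, and not all 19 switch the oxidase on. Between 5 and 2 weeks 19 of 19 had log2 differences above 0, with a median of 0.66, where 50.2% of all genes lay above 0. At an unadjusted p under 0.05, 15 of the 19 were higher, where 6.18% of all genes were. Between 5 and 0 weeks 18 of 19 were above 0 and 5 were higher at that level, where 55% and 5.84% of all genes were. None of the 19 passed in limma in any comparison. Fcgr4, an activating Fc receptor of monocytes and neutrophils, averaged 5.26 ± 1.32, 3.999 ± 2.08 and 9.82 ± 1.25 CPM at 0, 2 and 5 weeks (SD, n = 4), with all 5-week mice above all others. Of all genes tested, 3.65% had every 5-week library above every control, and 2.38% had every one above every 2-week library. Fcgr4 was named for the smallest F-test p of its list, so its separation follows in part from that choice. The log2 difference of Fcgr4 was 1.19 ± 0.23 (SE) between 5 and 2 weeks (limma adjusted p = 0.276). Prkcd, a protein kinase C that phosphorylates p47phox, averaged 70.6 ± 4.35, 72.7 ± 4.70 and 86.4 ± 5.86 CPM and had a log2 difference of 0.29 ± 0.07 between 5 and 0 weeks (adjusted p = 0.379). Vav1, an exchange factor for Rac, averaged 14.7 ± 1.51, 12.9 ± 3.73 and 19.9 ± 3.16 CPM.

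Of 12 genes that remove superoxide and peroxide, 7 had log2 differences above 0 between 5 and 2 weeks, with a median of 0.02, where 50.2% of all genes lay above 0. Between 5 and 0 weeks 9 of 12 were above 0, with a median of 0.11, where 55% of all genes lay above 0. Most one-sided was the comparison of 2 with 0 weeks, with 11 of 12 above 0 (median 0.10), where 55.1% of all genes were. None of the 12 passed in limma in any comparison. Sod2, the superoxide dismutase of mitochondria, averaged 144 ± 7.64, 159 ± 9.64 and 139 ± 2.52 CPM at 0, 2 and 5 weeks (SD, n = 4), a log2 difference of -0.19 ± 0.06 (SE) between 5 and 2 weeks (limma adjusted p = 0.301). Catalase (Cat) averaged 275 ± 25.6, 302 ± 10.3 and 276 ± 22.1 CPM. Gpx1, a peroxidase that uses glutathione, averaged 313 ± 17.9, 319 ± 17.1 and 374 ± 88.9 CPM. Its 5-week values had a median of 333 CPM and a highest value of 507 CPM. Of 6 genes that supply NADPH, none passed. G6pdx, which encodes the first enzyme of the pentose phosphate pathway, averaged 45.6 ± 8.87, 35.6 ± 2.99 and 46.9 ± 1.88 CPM, with a log2 difference of -0.33 ± 0.11 between 2 and 0 weeks (adjusted p = 0.411) and 0.39 ± 0.11 between 5 and 2 weeks (adjusted p = 0.288). Taldo1, of the same pathway, averaged 139.7 ± 18.8, 141 ± 6.82 and 164 ± 20.51 CPM, and Idh1, a cytosolic isocitrate dehydrogenase, 86.8 ± 9.25, 95.8 ± 9.58 and 91.3 ± 10.2 CPM.

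Markers of cells that can carry Nox4 were set beside it. Between 2 and 0 weeks, where Nox4 had its lowest mean, 10 of 12 fibroblast markers had log2 differences below 0 (median -0.13), 5 of 9 pericyte markers were below 0 (median -0.11), and 8 of 9 smooth muscle markers were above 0 (median 0.38). Of all genes tested, 55.1% lay above 0. The summed fibroblast markers were 2009 to 2812 CPM in the controls, 1899 to 2605 at 2 weeks and 1534 to 2263 at 5 weeks. Endothelial markers summed to 4639 to 5809, 5429 to 5777 and 4596 to 5570 CPM. None of these lists held a gene that passed in limma, and their part in the Nox4 values was not tested.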

How the data were processed

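The authors deposited 1 table of CPM values (read counts scaled to a common library total) with 0.0001 added to each, for 23127 genes in 12 libraries. The submitters' processing notes name TopHat2, Partek and the build mm10, and no source used here gives their versions, the annotation or the strand setting. Of 23073 genes matched to GENCODE M21 (GRCm38), 501 had the same start, so positions are printed as deposited, in a build the table does not name, with the stop minus 1 as end. Column names carry the mouse number of the sample titles. Values were analysed as log2(CPM + 1), which understates the change of low genes, for the 15562 genes averaging 1 CPM or more. Limma 3.58.1 (R 4.3.3) fitted 3 group means over 12 libraries with a variance trend, and two-sided p-values were adjusted by Benjamini-Hochberg over all genes at 0.05. Whole reads were not recovered, since only 87.2% to 88.0% of the values between 1 and 20 times the worth of a read were whole to within 0.1, so no count model was run and no counting interval is given. No 2 libraries were identical. On simulated counts for 5 against 0 weeks (15507 genes), limma found 61.2% of the genes given a 1.5-fold change, 83.6% at 2-fold and 97% at 4-fold, and made 7 false calls. Whether these shares hold for the members was not tested. Cybb, whose mean at 5 weeks was 1.83 times that at 2 weeks, did not pass in limma (adjusted p = 0.297).

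The members and lists were chosen with earlier results of these data known. The rule for named genes took all members, the 3 genes of each pathway list with the smallest F-test p (none passed), Ptprc, the first 3 genes of each marker list, and the 5 genes most like each member by Pearson's r, predicted genes passed over. Of the marker genes so taken, 1 of each of 3 leukocyte lists is printed, and some genes that the rule takes are not reported here. Sftpc, Ager and Pecam1 were added to check the tissue, and Galnt2l and Gtf2ird2 for their overlap. Ratios to Ptprc used exact permutation tests, adjusted over 15, and the 15 member pairs are described by r. Permutation tests used scipy 1.17.1 under Python 3.11.15, tables pandas 2.3.3 with numpy 2.4.6, and plots matplotlib 3.10.9. Alternatives changed the pseudocount (0.1 or 5), dropped the filter or raised it to 10 CPM, and tried 2 other scalings, library weights, robust moderation, fits of only the groups compared, and left-out libraries.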

Additional observations from a re-analysis of the deposited data

Results flagged for a closer look

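In 2-week replicate 4, 4 members lay far above the other 2-week mice, by more than the gap that a test for a stray value among 4 allows. Cybb stood at 89.28 CPM against 35.0 to 41.6 in the other 3, Cyba at 91.01 against 69.6 to 73.1, Ncf4 at 12.28 against 4.77 to 5.76 and Nox4 at 119.9 against 76.0 to 82.9 CPM. Of the 18 sets of 4 values examined, chance would mark about 1 in 20, and all 4 marked values are of 1 mouse, so they are not independent. Ptprc in that mouse was 136 CPM against 57.5 to 76.7.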

How the results depend on the processing

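The 5 phagocyte members kept log2 differences above 0 between 5 and 0 weeks and between 5 and 2 weeks under the alternatives run. Of the member differences under alternatives, 379 kept direction and call, 8 passed newly and 6 changed sign. Ncf4, with a mean under 10 CPM, has no value under that filter. The 8 are the 4 members that passed between 5 and 2 weeks without 2-week replicate 4 and the 4 with library weights. Over left-out libraries the count of members passing lay between 0 and 4 there. The count of all genes passing, 0 as reported in each comparison, was 18 (2 against 0 weeks) and 881 (5 against 2 weeks) with library weights. With libraries left out it lay between 0 and 24 for 2 against 0 weeks (highest without 5-week replicate 3), 0 and 1 for 5 against 0 weeks (control replicate 1), and 0 and 386 for 5 against 2 weeks (2-week replicate 4). As reported, 1438, 1343 and 1696 genes had an unadjusted p under 0.05. The 5 members with such a p between 5 and 2 weeks were 3 without the 3 libraries known to stand apart; between 2 and 0 weeks the count of 0 was 3 with library weights, 3 without 2-week replicate 4 and 1 without control replicate 3. Sign changes were small, and their cause was not tested. Between 2 and 0 weeks Cyba ranged from -0.115 (with library weights) to 0.034 over all the alternatives. Without the 3 libraries Cyba was 0.030, Ncf1 0.061 and Rac2 0.0001. Nox4 between 5 and 0 weeks ranged from -0.130 to 0.067.

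Relative to Ptprc, 223 values kept direction and 17 changed sign. With libraries left out, Cybb (5 against 0 weeks) ranged from -0.172 to 0.0009, Ncf1 (2 against 0) from -0.054 to 0.171, Ncf4 (5 against 2) from -0.170 to 0.020, and Rac2 from -0.056 to 0.073, -0.054 to 0.1004 and -0.040 to 0.074 in the 3 comparisons. With 5 leukocyte genes as reference Cybb (5 against 0) was 0.036, and without the 3 libraries 0.060. Rac2 (5 against 2) was -0.026 at a pseudocount of 5 and -0.070 without the 3 libraries. Nox4's r with Cybb, Cyba, Ncf1, Ncf4 and Rac2, positive over 12 libraries, was -0.632, -0.571, -0.587, -0.704 and -0.673 in the 8, a set chosen after seeing the data. No paired analysis was possible because the labels give mouse numbers only, which no 2 groups share.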
